A study of Mus musculus with 18 samples.

Results

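S100a8, Ngp and Lcn2 are transcripts that mouse neutrophils make for their granules and cytosol, and their signals were followed in heart across 4 groups of samples. They were chosen by symbol, 1 probe each, as 3 of the 4704 probes with values per sample, of which 2568 carry 1 symbol. A probe here stands for 1 transcript cluster of the Clariom S mouse array. The study kept mice in normoxia, or in hypoxia at 11% oxygen, and took heart RNA at postnatal day 8 (P8) or 30 (P30). At each age 5 samples were hypoxic and 4 normoxic. The labels name no strain, genotype or sex and leave unsaid whether the P30 mice stayed in hypoxia throughout. Whether samples came from different animals is unsaid too, and every p-value below covers the spread between samples only. Of 6 cardiomyocyte markers with values, 5 had group means between 11.66 and 17.63 on the log2 scale in every group, among them Myh7, the slow myosin heavy chain, at 15.56 to 17.36. The sixth, the troponin I isoform Tnni1 of the immature heart, was at 12.05 and 15.71 in normoxic and hypoxic P8 hearts and at 3.52 and 3.33 at P30.

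Neutrophils store antimicrobial proteins in granules that are filled one kind after another while the cells mature in the bone marrow. S100a8 is a small calcium-binding protein of the neutrophil cytosol that pairs with S100a9 to form calprotectin, which withholds metal ions from microbes and, once released, acts as an alarmin on the receptors Tlr4 and Ager. Ngp, neutrophilic granule protein, is a secondary granule protein of mouse related to cathelicidins and cystatins. Lcn2, lipocalin 2, is a secondary granule protein that binds iron-loaded bacterial siderophores, and its transcript is also induced in cells other than neutrophils by inflammatory signals through NF-kB and STAT3.

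The 3 genes lie on chromosomes 3, 9 and 2, and S100a8 is the direct neighbour of S100a9. Their promoters are set side by side because all 3 genes were higher in hypoxia at P8. The 250 bases before each RefSeq start site (GRCm38.p6) are printed 5' to 3' on the gene's strand. Capitals mark every match to 5 motifs, searched on both strands. TTGCNNAA, a C/EBP core, was held by 9.56% of 32851 such mouse windows, and TTCNNNGAA, a STAT site, by 7.02%. The TATAAA of a TATA box was held by 12.4%. The core that hypoxia-inducible factors bind, ACGTG, was held by 16.6%. An NF-kB site, searched as 3 G, any 3 bases, 2 T and 2 C, was held by 4.65%.
S100a8 (chr3:90668821-90669070, plus strand): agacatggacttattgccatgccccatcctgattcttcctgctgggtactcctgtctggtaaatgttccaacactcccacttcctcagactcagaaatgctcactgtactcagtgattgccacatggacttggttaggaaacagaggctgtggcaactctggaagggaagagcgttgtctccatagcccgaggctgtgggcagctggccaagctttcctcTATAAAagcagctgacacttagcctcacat
Ngp (chr9:110419558-110419807, plus strand): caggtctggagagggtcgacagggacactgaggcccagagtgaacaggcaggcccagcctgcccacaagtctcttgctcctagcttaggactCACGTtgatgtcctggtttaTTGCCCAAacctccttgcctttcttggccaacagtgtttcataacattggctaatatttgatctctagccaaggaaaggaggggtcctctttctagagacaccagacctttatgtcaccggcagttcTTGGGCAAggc
Lcn2 (chr2:32387740-32387989, minus strand): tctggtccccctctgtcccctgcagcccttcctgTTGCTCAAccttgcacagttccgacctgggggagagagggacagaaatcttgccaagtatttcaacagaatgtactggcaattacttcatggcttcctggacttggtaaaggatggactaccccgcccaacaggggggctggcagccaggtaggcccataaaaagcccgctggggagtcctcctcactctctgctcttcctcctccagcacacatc
The S100a8 window held only a TATAAA, 30 to 25 bases before the start. The Ngp window held the C/EBP letters at 138 to 131 and again at 11 to 4 bases before the start, and ACGTG on the opposite strand at 158 to 154. In the Lcn2 window the C/EBP letters stood at 216 to 209 bases before the start. None of the 3 windows held the NF-kB or STAT letters searched, so no searched motif was present in all 3. A match is a string of letters and was not tested as a binding site.

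All 3 genes were dim on these arrays. Values in the table ran from 1.69 to 19.93 on the log2 scale, array medians from 7.38 to 8.07, and the highest group mean of any of the 3 was 5.56. In normoxic P8 hearts 2.8% of probes had a lower group mean than S100a8, 4.3% than Ngp and 7.3% than Lcn2, and in hypoxic P8 hearts 20.8%, 20.5% and 20.6%. Hypoxic P8 samples 4 and 5 were the highest in interferon-induced genes. Over 17 such genes their means were 12.57 and 13.77. Samples 6, 7 and 8 had 7.35, 6.95 and 10.27, and normoxic P8 samples 4.70 to 5.67. Sample 8 thus lay between samples 4 and 5 and samples 6 and 7, and it was kept when samples 4 and 5 were left out. Calls at P8 that were lost without samples 4 and 5 are therefore named or counted.

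At P8 the signals of all 3 genes were higher in hypoxic than in normoxic hearts, and no hypoxic sample lay as low as any normoxic one. S100a8 stood at 2.23, 3.44, 3.13 and 4.10 in normoxic samples 13, 22, 23 and 24, and at 5.83, 6.66, 5.18, 4.62 and 4.80 in hypoxic samples 4 to 8. The groups were 0.52 apart at their nearest, with samples 5 and 4 the highest and normoxic sample 24 nearest to the hypoxic ones. The mean went from 3.22 ± 0.78 (SD, n = 4) to 5.42 ± 0.83 (SD, n = 5), a log2 difference of 2.19 ± 0.38 (SE) or 4.57-fold, with a limma adjusted p of 0.0019. Without samples 4 and 5 the difference was 1.64 ± 0.35 (SE) and still passed (limma adjusted p = 0.00901).

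Ngp stood at 2.80, 2.75, 4.05 and 4.11 in normoxic P8 samples 13, 22, 23 and 24, and at 6.42, 7.06, 4.52, 4.75 and 4.21 in hypoxic samples 4 to 8. Samples 4 and 5 were far above the other 3 hypoxic samples, whose lowest exceeded the highest normoxic sample by 0.10 only. The log2 difference was 1.96 ± 0.49 (SE), 3.90-fold, between means of 3.43 ± 0.75 (SD, n = 4) and 5.39 ± 1.27 (SD, n = 5); the limma adjusted p was 0.0257. Without samples 4 and 5 it was 1.07 ± 0.38 (SE) and did not pass (limma adjusted p = 0.163). It also did not pass without normoxic sample 13 (1.76) or 22 (1.74), without hypoxic sample 4 alone (1.71), or with arrays centred on their medians (1.60).

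Lcn2 stood at 3.94, 3.48, 3.14 and 4.35 in normoxic P8 samples 13, 22, 23 and 24, and at 5.56, 6.37, 5.42, 4.49 and 5.17 in hypoxic samples 4 to 8. The hypoxic samples were spread more evenly than for Ngp, with sample 5 the highest and sample 7 only 0.14 above normoxic sample 24. Means of 3.73 ± 0.53 (SD, n = 4) and 5.40 ± 0.68 (SD, n = 5) gave a log2 difference of 1.67 ± 0.44 (SE), 3.19-fold, with a limma adjusted p of 0.0337. The call ended without samples 4 and 5 (1.30 ± 0.48, SE, limma adjusted p = 0.186), without any single one of normoxic samples 13, 22 or 23 or hypoxic samples 4, 5, 6 or 8 (1.43 to 1.75, limma adjusted p of up to 0.123), and with arrays centred (1.31) or quantile normalized (1.47).

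**Figure D1:**
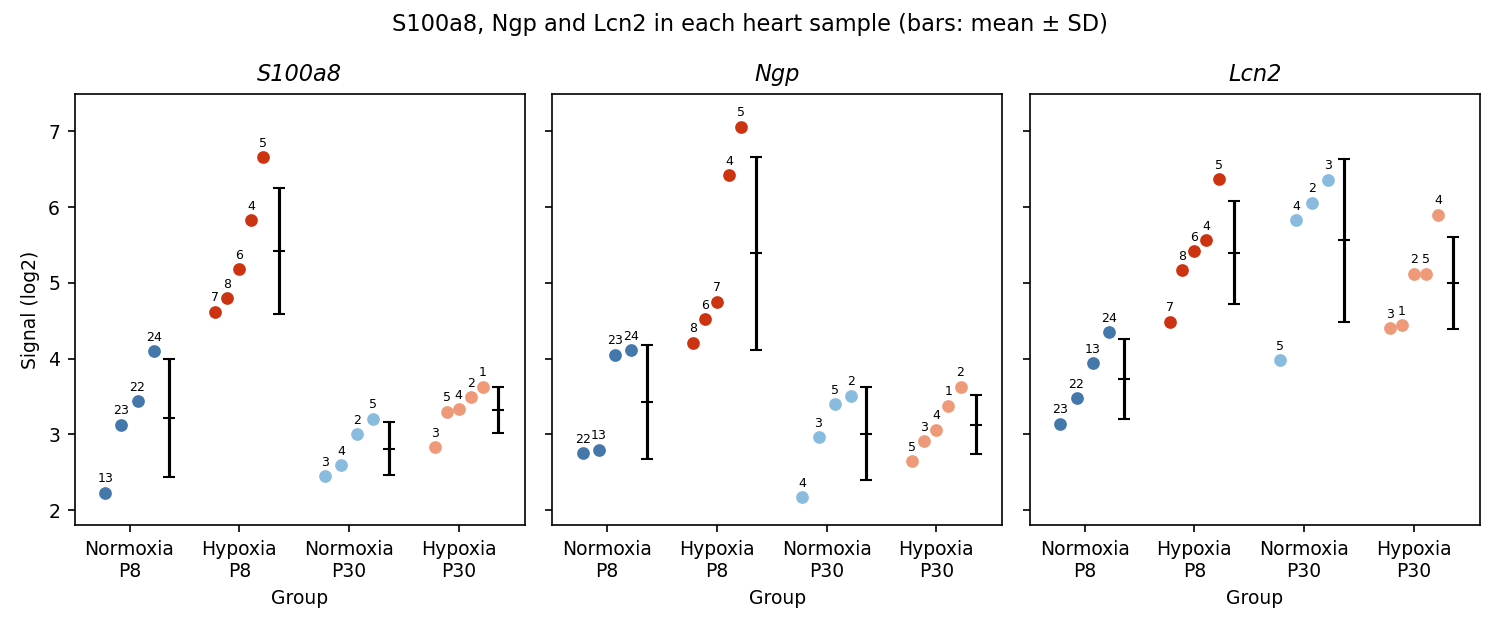
Log2 signal of S100a8, Ngp and Lcn2 (vertical axis) in each sample, by group, with sample numbers above the points and mean ± SD beside each group. At P8 every hypoxic sample lies above every normoxic one in all 3 genes, hypoxic samples 4 and 5 are the highest for S100a8 and Ngp, and at P30 Lcn2 lies between 3.98 and 6.36.

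All 3 genes thus rose at P8, where 20.7% of the 4704 probes were called, 15.2% higher in hypoxia and 5.57% lower, and 16.4% had hypoxic samples that all lay above the normoxic ones. These shares are of a table whose probes all differ between groups, by at least 0.46 between the highest and lowest group mean, and the 3 genes could be named only because the authors' P8 list holds them (unadjusted p of up to 0.05), so the call of all 3 is not set against an unselected background. In the authors' deposited table the folds were 4.04 for S100a8 (q = 0.0118), 2.54 for Ngp (q = 0.0707) and 3.17 for Lcn2 (q = 0.08). That table gives 4.77 as the hypoxic average of Ngp, below the arithmetic mean of the 5 samples and close to their median of 4.75.

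At P30 none of the 3 genes passed the test between hypoxia and normoxia, in a contrast in which limma called 0 of 4704 probes (0%, with 656 at an unadjusted p under 0.05). S100a8 was at 3.00, 2.45, 2.59 and 3.21 in normoxic samples 2 to 5 and at 3.63, 3.49, 2.83, 3.33 and 3.30 in hypoxic samples 1 to 5. All hypoxic samples but sample 3 lay above the normoxic range, a log2 difference of 0.50 with a 95% interval of -0.29 to 1.29 (limma unadjusted p = 0.199). Ngp was at 3.51, 2.96, 2.17 and 3.40 against 3.38, 3.63, 2.91, 3.06 and 2.65, ranges that overlapped throughout (0.12, interval -0.92 to 1.15, limma unadjusted p = 0.817).

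Lcn2 at P30 was at 6.06, 6.36, 5.83 and 3.98 in normoxic samples 2 to 5 and at 4.44, 5.12, 4.40, 5.90 and 5.12 in hypoxic samples 1 to 5. Normoxic sample 5 lay below every hypoxic sample. Normoxic samples 2 and 3 lay above every hypoxic sample, and normoxic sample 4 (5.83) lay above all but hypoxic sample 4 (5.90). The log2 difference of -0.56 had an interval of -1.49 to 0.36 (limma unadjusted p = 0.219). Without normoxic sample 5 it was -1.09, the farthest from 0 over the samples left out, and it did not pass there either. The authors' P30 list holds none of the 3 genes.

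The change in the hypoxia effect from P8 to P30 was negative for all 3 genes but was not called for any, where 5.17% of probes were called and 4.34% were called with a negative value. It was -1.69 ± 0.54 (SE) for S100a8 (limma adjusted p = 0.137), -1.85 ± 0.70 for Ngp (0.264) and -2.24 ± 0.63 for Lcn2 (0.0834). Their 95% intervals, -2.81 to -0.57, -3.31 to -0.39 and -3.54 to -0.93, lay below 0 without adjustment for the other probes. That of Lcn2 passed without normoxic P30 sample 5 (-2.76, limma adjusted p = 0.0139). A smaller effect of hypoxia at P30 than at P8 was therefore not established for these genes.

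Between P8 and P30 in normoxia, Lcn2 rose while S100a8 and Ngp were not called. Lcn2 went from 3.73 ± 0.53 (SD, n = 4) to 5.56 ± 1.07 (SD, n = 4), a log2 difference of 1.83 ± 0.47 (SE) or 3.56-fold, with a limma adjusted p of 0.018. The groups overlapped, because P30 sample 5 (3.98) lay within the P8 range of 3.14 to 4.35. The 1 gene called stands beside 34.6% of probes called, 18.3% higher at P30 and 16.3% lower. By an exact permutation test on Lcn2 alone the two-sided p was 0.0571, and the limma call ended without P8 samples 22 or 23 or P30 samples 2, 3 or 4 (1.56 to 1.75, adjusted p of up to 0.0789).

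S100a8 differed with age in normoxia by -0.41 (95% interval -1.25 to 0.42) and Ngp by -0.42 (-1.51 to 0.67), both with overlapping groups. The change of Lcn2 exceeded that of S100a8 by 2.24 and that of Ngp by 2.25 on the log2 scale within the same samples, whereas S100a8 and Ngp differed by 0.01. In exact two-sided permutation tests over the 8 normoxic samples, chosen after the values had been seen, the p was 0.0571 for Lcn2 against S100a8, 0.0857 for Lcn2 against Ngp and 1 for S100a8 against Ngp (0.129, 0.129 and 1 adjusted over the 3 pairs; the smallest p of this design is 0.0286). The separate course of Lcn2 with age is thus not established by these samples.

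In hypoxia S100a8 and Ngp fell from P8 to P30 and their groups did not overlap. The log2 difference was -2.10 ± 0.36 (SE) for S100a8 (limma adjusted p = 0.000223) and -2.27 ± 0.47 for Ngp (0.0014), or 4.29-fold and 4.81-fold lower. In this contrast 70.2% of probes were called, 43.9% lower and 26.3% higher at P30, 35.3% lay lower without overlap, and the median over all probes was -0.50. Both calls held with arrays centred on their medians (-1.63 and -1.79) and without P8 samples 4 and 5 (-1.55 and -1.37). Lcn2 was at 5.40 ± 0.68 (SD, n = 5) and 5.00 ± 0.61 (SD, n = 5), a difference of -0.41 with an interval of -1.28 to 0.46, and its sign turned with arrays centred (0.07) or quantile normalized (0.02).

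**Figure D2:**
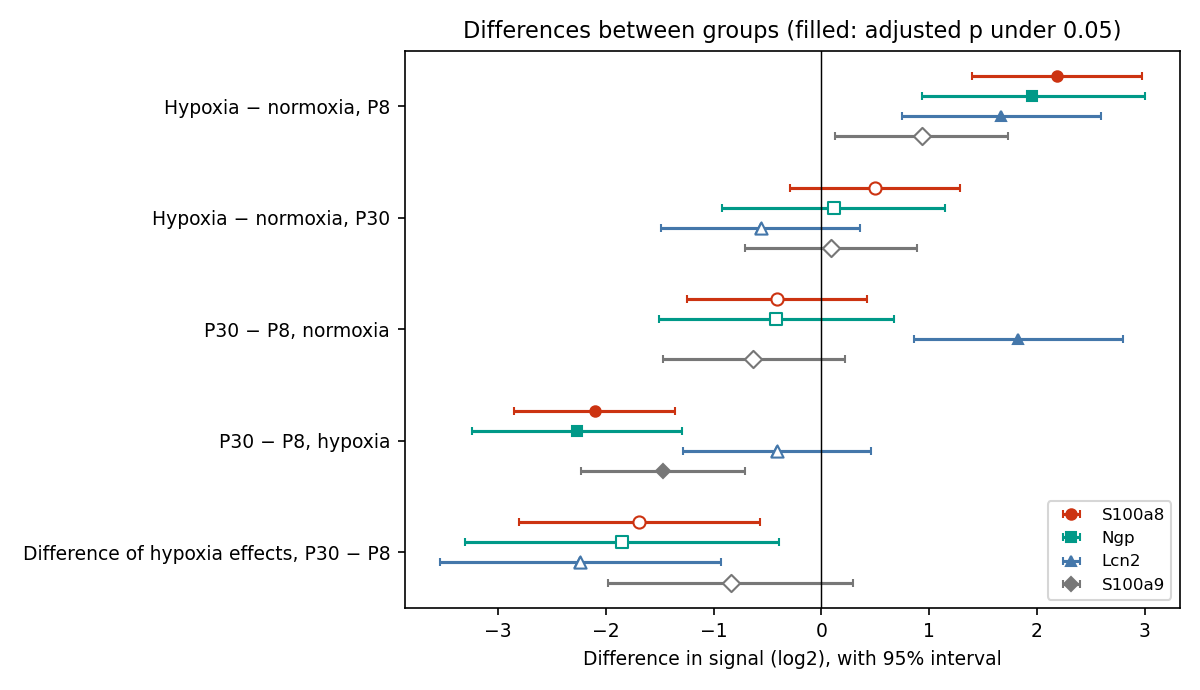
Log2 differences in signal (horizontal axis) with 95% intervals for S100a8, Ngp, Lcn2 and S100a9 in 5 comparisons, filled where the limma adjusted p was under 0.05. At P8 the intervals of the 3 genes lie above 0, at P30 all cross 0, and with age in normoxia that of Lcn2 alone lies above 0.

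Ordered by group mean, S100a8 was highest in hypoxic P8 hearts (5.42), and hypoxic P30 (3.32), normoxic P8 (3.22) and normoxic P30 hearts (2.81) followed with overlapping ranges. Ngp had the order hypoxic P8 (5.39), normoxic P8 (3.43), hypoxic P30 (3.13) and normoxic P30 (3.01), again with overlap among the last 3. For Lcn2 the order was normoxic P30 (5.56), hypoxic P8 (5.40), hypoxic P30 (5.00) and normoxic P8 (3.73), and normoxic P8 lay below both hypoxic groups without overlap and overlapped normoxic P30 through sample 5 of that group.

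S100a8 and Ngp followed each other closely across samples. Their Pearson r over the 18 samples was 0.92, the second highest for each among 2567 other probes with 1 symbol. For deviations from the 4 group means it was 0.79, at rank 6 for S100a8 and rank 8 for Ngp. Hypoxic P8 samples 5 and 4 held ranks 1 and 2 of the 18 in both genes, and no r given here was computed without them. Samples within a group share age and oxygen, and all samples share the array's scale, so r describes likeness and was not tested. Lcn2 had an r of 0.28 with S100a8 and of 0.25 with Ngp over the 18 samples, and of 0.27 and 0.23 in deviations. Hypoxic P8 sample 5 was the highest of all 18 samples in each of the 3 genes.

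**Figure D3:**
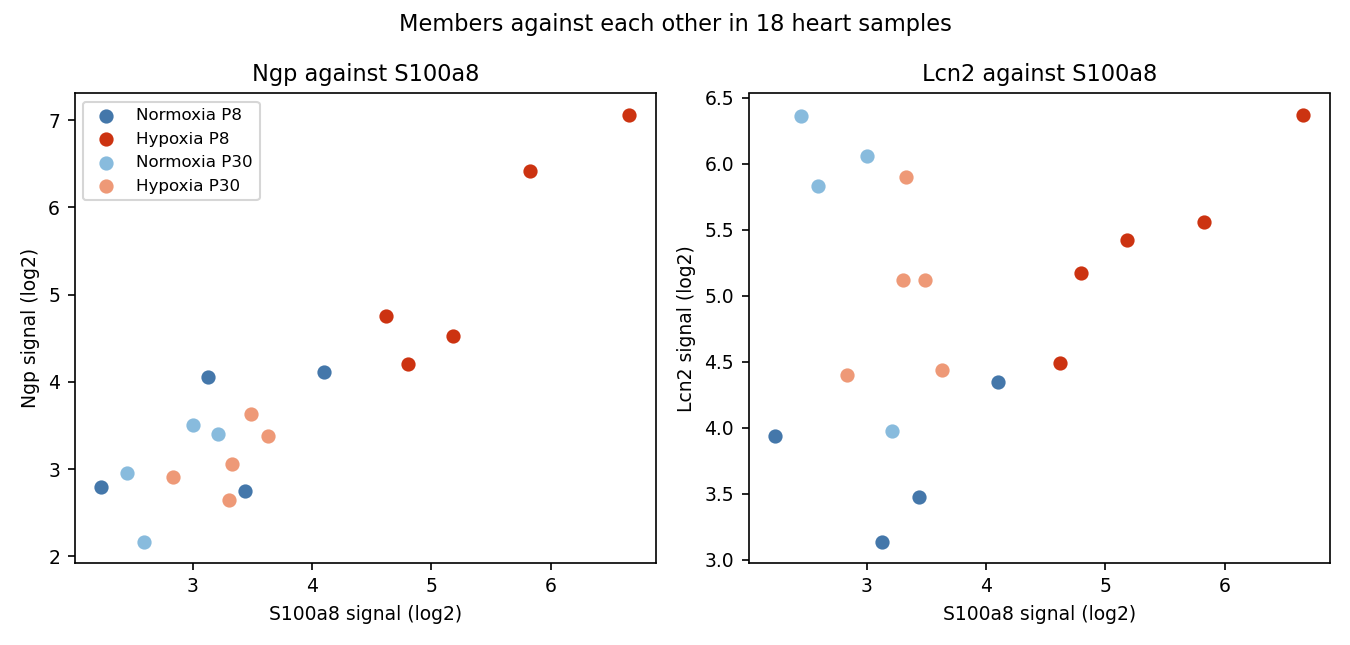
Log2 signal of Ngp (left) and Lcn2 (right) against that of S100a8 in 18 samples, coloured by group. Ngp rises with S100a8 from the normoxic to the hypoxic P8 samples, with samples 4 and 5 at the upper right, while the P30 samples, all low in S100a8, spread over Lcn2 values of 3.98 to 6.36.

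Among named genes other than the 3, those most like S100a8 over the 18 samples were Hdc, histidine decarboxylase, which makes histamine (r = 0.93), Ogfr, the opioid growth factor receptor (0.91), Rsad2, the interferon-induced antiviral enzyme viperin (0.91) and Bcl3, a partner of NF-kB (0.89). Those most like Ngp were Ogfr (0.92), Rsad2 (0.92), Wars, the interferon-responsive tryptophanyl-tRNA synthetase (0.91) and Hdc (0.89). Hdc stood at 5.19 in normoxic and 9.10 in hypoxic P8 hearts and at 5.66 in both P30 groups, a P8 difference of 3.91 ± 0.54 (SE, limma adjusted p = 0.000271), and 2.89 without samples 4 and 5 (0.000172). For Lcn2 a different set led: the mitophagy receptor Bnip3 (0.85), the lysosomal macrophage glycoprotein Cd68 (0.82), Rassf4 (0.81) and the solute carrier Slc43a3 (0.80). Bnip3 was, like Lcn2, lowest in normoxic P8 hearts (8.44) and highest in normoxic P30 hearts (11.22), with 10.67 and 10.26 in the hypoxic groups.

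Within groups, after the group means were taken away, S100a8 was most like Fcer1g, the signalling chain shared by Fc receptors (r = 0.84), Cst3, the protease inhibitor cystatin C (0.82), Ly6a (0.81) and Stfa2l1, a stefin of mouse neutrophils (0.81). Ngp was most like the leukocyte adhesion molecule Icam1 (0.86), the mitochondrial pyruvate carrier Mpc1 (0.82), Wars (0.82) and H2-T-ps (0.80). Lcn2 was most like the clathrin adaptor Picalm (0.81), the RNA sensor Tlr7 (0.71), Bnip3 (0.70) and Ifi207 (0.70). Cst3 and Mpc1 had negative r with S100a8 and Ngp over the 18 samples (-0.53 and -0.49), so their likeness was within groups only.

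S100a9, the partner of S100a8 in calprotectin, was not called in hypoxia at P8. It was at 5.36, 5.51, 5.07 and 5.34 in normoxic samples 13, 22, 23 and 24 and at 6.73, 7.33, 6.04, 5.95 and 5.21 in hypoxic samples 4 to 8. Samples 4 and 5 were again the highest, and sample 8 lay within the normoxic range. The log2 difference was 0.93 with an interval of 0.13 to 1.73 (limma adjusted p = 0.27), and 0.41 without samples 4 and 5. With age in hypoxia S100a9 fell by 1.47 ± 0.36 (SE, limma adjusted p = 0.00633), as did S100a8. Its signal followed that of S100a8 with an r of 0.81 over the 18 samples, the 63rd highest of 2567 probes.

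Few other granule genes could be read sample by sample. Of 8 S100 genes listed, 3 had values: S100a8 and S100a6, a calcium-binding protein of many cell types (0.97 ± 0.26, SE, limma adjusted p = 0.0365, and 1.08 without samples 4 and 5, 0.0382), rose at P8, and S100a9 was not called. In that contrast 15.2% of all probes rose. All 3 were named through the authors' P8 list, which favours a difference at P8. Of 10 secondary granule genes only Ngp and Lcn2 had named values, and of 7 primary and 5 gelatinase granule genes none had. The authors' P8 list (unadjusted p of up to 0.05) holds 2 of these 10, 1 of the 7 and 0 of the 5. Over the whole array it holds 4351 probes, beside 22206 tests. Genes outside it did not reach that limit or were not on the array under a listed name, which the list cannot tell apart. The authors' deposited table gives a P8 fold of -1.44 for Ms4a3, a marker of early granulocyte precursors (q = 0.1966). At P30 the authors' deposited table lists the primary granule protease Elane at a fold of 1.37 (q = 0.6021), the secondary granule lectin Fcnb at 1.23 (q = 0.5597) and the collagenase Mmp8 at 1.78 (q = 0.6653). None of these 4 is past a q of 0.05.

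Of 36 genes of the neutrophil surface and mature neutrophil, 10 had named values, and 7 rose at P8. Their list's median log2 difference was 1.5, against 0.18 over all probes, of which 15.2% rose. Cybb, the catalytic subunit of the phagocyte oxidase, rose by 3.42 ± 0.50 (SE, limma adjusted p = 0.000461) from a group mean of 5.74 to 9.16. The stefins Stfa2 and Stfa2l1 rose by 1.73 ± 0.40 and 1.72 ± 0.34 (adjusted p = 0.016 and 0.00484), the integrin chains Itgb2 and Itgam by 1.41 ± 0.29 and 1.60 ± 0.37, and the Fc receptor Fcgr3 by 1.65 ± 0.36. Itgal (0.89), Ncf4 (0.99) and Fcgr4 (1.35) were not called. Without samples 4 and 5, 3 of the 10 passed and the list's median was 0.99: Itgb2 (0.91), Stfa2l1 (1.33) and Cybb (2.63). Genes of this list, among them Cybb, Fcgr3, Itgam and Ncf4, are also transcribed in macrophages, so the list does not mark neutrophils alone. All 10 were named through the authors' P8 list, which favours a difference at P8.

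At P30 none of the 10 was called between hypoxia and normoxia (median -0.03, against -0.10 over all probes). With age in normoxia Cybb (2.15) and Fcgr3 (1.76) rose and Stfa2 (-1.76) and Stfa2l1 (-1.19) fell, so the list did not move as 1 with age. Lcn2 rose in this contrast, and S100a8 and Ngp were not called in either direction. With age in hypoxia 7 of the 10 fell, among them Stfa2l1 (-3.42) and Stfa2 (-2.99), and the list's median was -1.32, where 43.9% of all probes fell and their median was -0.50. The authors' deposited table holds 4 genes of this list without values per sample. At P8 the authors' deposited table gives folds of 1.57 for the formyl peptide receptor Fpr1, 1.64 for the lectin Clec4e and 1.8 for Ifitm6 (q = 0.1975, 0.1985 and 0.1985). For P30 the authors' deposited table gives 1.18 for the resistin-like Retnlg (q = 0.7009).

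**Figure D4:**
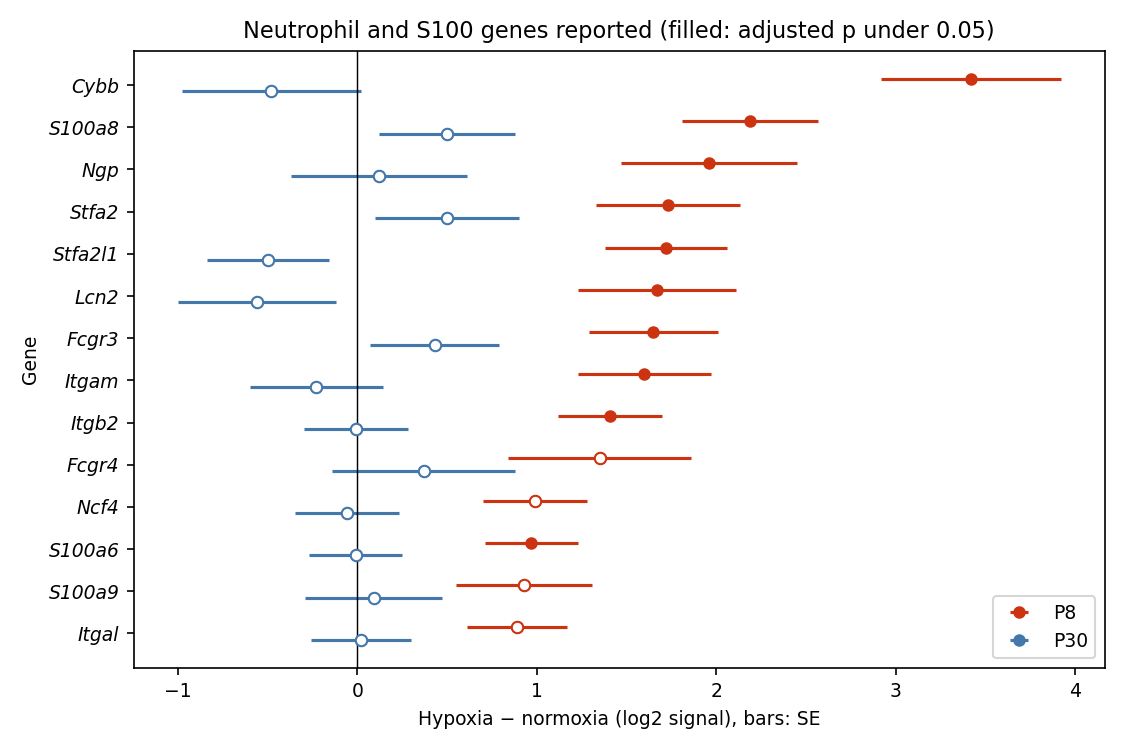
Log2 difference between hypoxia and normoxia (horizontal axis, bars SE) at P8 and P30 for the secondary granule, S100 and neutrophil surface genes with values that are reported here, filled where the limma adjusted p was under 0.05. All P8 points lie to the right of 0, while the P30 points lie on both sides and none is filled.

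Transcription factors of granulocyte development did not move as a group. Of 9 listed, Spi1, the factor PU.1 of all myeloid cells, rose at P8 by 2.42 ± 0.52 (SE, limma adjusted p = 0.0104, and 2.46 without samples 4 and 5, 0.0262), and Myb, a factor of progenitors, was at -1.0 and not called. In the authors' deposited table the granulocyte factors Cebpe and Gfi1 had P8 folds of -1.22 (q = 0.2155) and -1.8 (q = 0.1158). Neither of these 2 is past a q of 0.05. Cebpe had averages of 2.45 in hypoxia and 2.74 in normoxia, on a scale whose values start at 1.69.

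Of 19 listed genes of the signalling that can induce Lcn2 and S100a8, 6 had values and 5 rose at P8. The median of the 6 was 1.30, against 0.18 over all probes, of which 15.2% rose. The 5 were named through the authors' P8 list, which favours a difference at P8. Bcl3, which works with NF-kB, rose by 2.14 ± 0.25 (SE, limma adjusted p = 4.98e-05) and all 5 hypoxic samples, at 6.25 to 6.88, exceeded the normoxic ones, at 3.95 to 4.73. Stat3 rose by 1.54 ± 0.37, the adaptor Myd88 by 1.22 ± 0.28, the receptors Tnfrsf1a and Osmr by 1.30 ± 0.37 and 1.30 ± 0.36, and Hif1a was at 0.11. Only Bcl3 passed without samples 4 and 5 (1.97). In hypoxia 5 of the 6 fell with age (median -1.22, against -0.50 over all probes, of which 43.9% fell), Osmr being the exception.

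Of 17 acute phase and target genes 2 had values. Serpina3n, an acute phase protease inhibitor, had a pattern near that of Lcn2: it rose at P8 in hypoxia (2.62 ± 0.47, SE, limma adjusted p = 0.00241) and with age in normoxia (2.61, adjusted p = 0.00191), and did not differ past the test at P30 (0.14) or with age in hypoxia (0.12). Its group means were 3.73, 6.35, 6.34 and 6.47 in the order normoxic P8, hypoxic P8, normoxic P30 and hypoxic P30. The chemokine Ccl2 was at 2.34 at P8 (adjusted p = 0.0555) and at 0.94 without samples 4 and 5. Serpina3n was at 2.51 without samples 4 and 5 (adjusted p = 0.00971). The likeness of Serpina3n and Lcn2 was noticed in the values and not tested. The authors' deposited table gives P8 folds below 0 for the acute phase protein Saa1 (-1.56, q = 0.2344) and the neutrophil-attracting chemokine Cxcl1 (-1.21, q = 0.078). For P30 the authors' deposited table gives 1.40 for the acute phase protein Orm1 (q = 0.7275).

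Among receptors of the 3 proteins, Tlr4, which senses calprotectin, was at 0.86 ± 0.28 (SE, limma adjusted p = 0.103) and the Lcn2 receptor Slc22a17 at 1.05 ± 0.38 (0.152) at P8, so neither of the 2 with values out of 9 listed was called. The co-receptor Cd14 had a P8 fold of 2.27 in the authors' deposited table (q = 0.1784). Of 11 genes of siderophores and iron, 4 had values and 2 rose at P8, where 15.2% of all probes rose. These were the ferritin light chain Ftl1 (1.57 ± 0.30, SE, limma adjusted p = 0.00408) and the haem oxygenase Hmox1 (1.10 ± 0.30, 0.0373). Both passed without samples 4 and 5 (1.86 and 1.35). The iron transporters Slc11a1 (0.90) and Slc11a2 (0.58) were not called. All 4 iron genes were named through the authors' P8 list, which favours a difference at P8. Of 9 other alarmins 1 had values, the heat shock protein Hspa1a, at -0.16 at P8 and 0.55 at P30, neither called.

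Markers of other blood and immune cells moved in the same hypoxic P8 samples. Every macrophage and erythroid marker with values was named through the authors' P8 list, which favours a difference at P8. Of 20 macrophage and monocyte markers 8 had values and 5 rose at P8 (median 1.48, against 0.18 over all probes, of which 15.2% rose), among them Cd68 (1.68 ± 0.23, SE) and Lyve1 (2.17 ± 0.47). Without samples 4 and 5, 2 rose, Cd68 (1.56) and Lyve1 (2.38), and the median was 0.95. Sample means of the list were 6.53 to 7.74 in hypoxic and 5.14 to 5.90 in normoxic samples, the highest in samples 4 (7.74) and 5 (7.62). Of 18 erythroid markers 6 had values and 5 rose (median 2.13), among them Ahsp (3.52 ± 0.44) and Slc4a1 (2.09 ± 0.37), with sample means of 7.79 to 8.93 in hypoxic and 5.33 to 7.59 in normoxic samples, and 4 rose without samples 4 and 5. Samples 4 and 5 had the lowest erythroid means of the hypoxic samples (7.79 and 8.08), and normoxic sample 24, the highest normoxic sample in each of the 3 genes, had the highest normoxic erythroid mean.

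Sample means of the neutrophil surface list were 6.96 and 7.02 in hypoxic P8 samples 4 and 5 and 5.74 to 5.85 in samples 6 to 8. Normoxic P8 samples had 4.50 to 4.87, and P30 samples 4.56 to 5.06. The macrophage means at P30 were 7.13 to 7.99 in normoxic and 7.20 to 7.66 in hypoxic hearts. With age in normoxia 7 of the 8 macrophage markers rose (median 1.97), where 18.3% of all probes rose. In the same contrast Lcn2 rose and S100a8 and Ngp were not called. Normoxic P30 sample 5, lowest in Lcn2, also had the lowest macrophage mean of all P30 samples (7.13). The hypoxic P30 samples went the other way. Sample 3, their lowest in Lcn2 (4.40), had their highest macrophage mean (7.66), and sample 4, their highest in Lcn2 (5.90), had 7.30. In these bulk samples more cells of a type and more RNA per cell cannot be told apart, and the part of these cell types in the values of S100a8, Ngp and Lcn2 was not tested. The defining neutrophil genes Ly6g, Cxcr2 and Csf3r had no named values and were not analysed here.

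**Figure D5:**
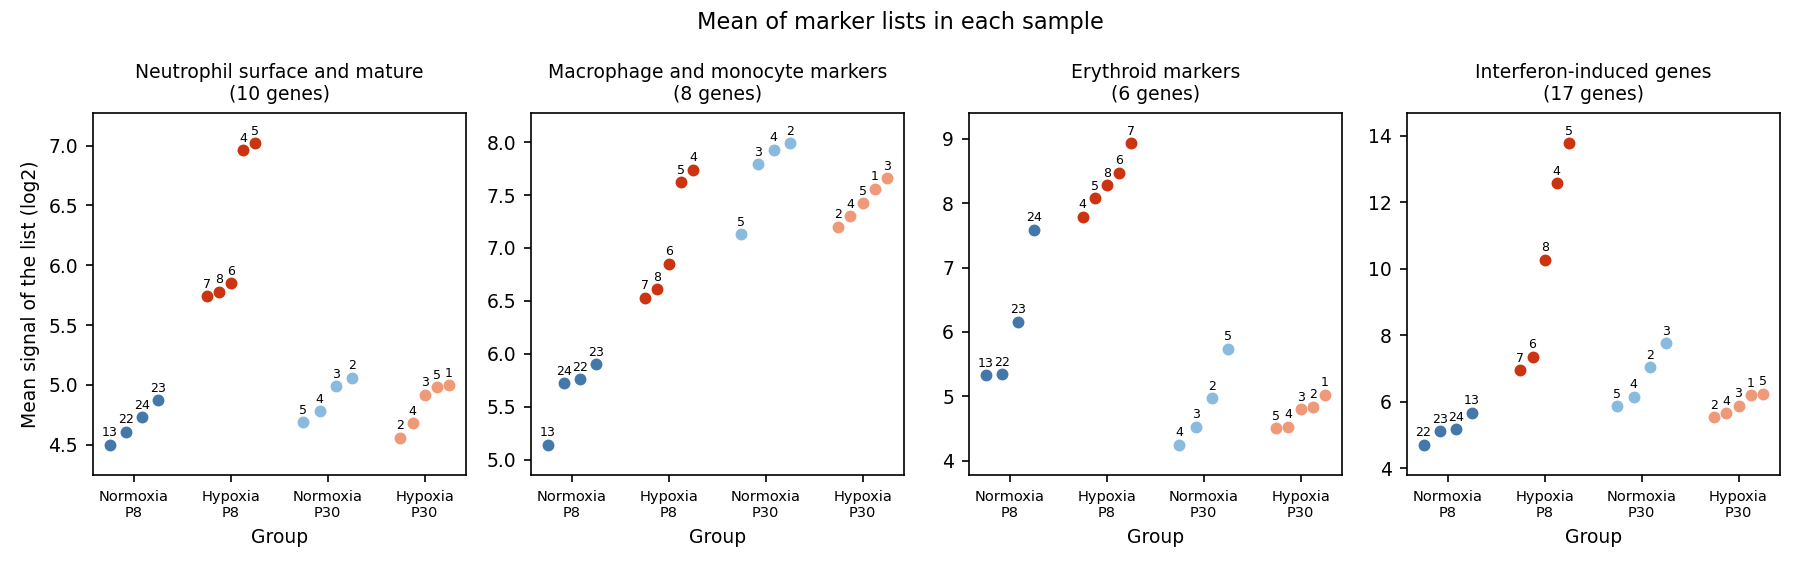
Mean log2 signal of 4 marker lists in each sample (vertical axis, scaled per panel), by group, with sample numbers. Hypoxic P8 samples 4 and 5 are highest in neutrophil surface, macrophage and interferon-induced genes among P8 samples, and macrophage means are high in all P30 samples.

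Other lists gave the surroundings of these changes at P8, where 15.2% of all probes rose and 5.57% fell. Most of their genes with values were named through the authors' P8 list, which favours a difference at P8. Of 17 interferon-induced genes with values all 17 rose (median 4.88), led in test statistic by Lgals3bp and by Rsad2 (4.44 ± 0.56, SE), and 12 did so without samples 4 and 5. Of 11 targets of hypoxia-inducible factors 9 rose, among them the glucose transporter Slc2a1 and Pfkp, and of 16 cell cycle genes 12 rose, among them Ube2c and Ccnb1. Of 5 endothelial markers 4 rose, among them Eng (1.61 ± 0.25), Flt1 (1.44 ± 0.29) and Icam1 (1.40), to which neutrophils and other leukocytes bind. Without samples 4 and 5, 2 of the 5 rose, Eng and Flt1, and Icam1 was at 0.84 (limma adjusted p = 0.217). Of 4 fibroblast markers 2 fell, Dcn (-1.82 ± 0.21) and Lum (-2.01 ± 0.36), and of 6 cardiomyocyte markers 1 rose, Tnni1 (3.66 ± 0.59), and 3 fell, among them Hrc. Of 3 lymphocyte markers the recombinase gene Rag2 fell (-0.86 ± 0.23, and -0.71 without samples 4 and 5, limma adjusted p = 0.212) and the granzyme Gzma (2.50) was not called.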

How the data were processed

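Heart RNA of 18 samples was measured on Clariom S mouse arrays. The deposited value table holds log2 signals normalized by the authors. Affymetrix Expression Console is named in the submitters' processing notes, without version or normalization method. Scanner files were not used here, so background correction could not be varied. The authors' deposited gene lists add log2 group averages, a fold change written as a signed score (below 0 for lower signal in hypoxia), and p-values and q-values. Which test made them is not stated in the labels or headers. The 4704 probes with values are 21.2% of the 22206 tests that the q-values in those lists imply, given each p-value's rank. Names came only from the gene lists: 2568 probes have 1 symbol, 105 several and 2031 none here. RefSeq tables (GRCm38.p6) gave current symbols and the promoter sequences. Where a listed gene had several probes, the brightest was used.

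Limma 3.58.1 in R 4.3.3 was fitted on all probes and all 4 groups, without a block (14 residual and 5.98 prior degrees of freedom), two-sided, with Benjamini-Hochberg adjustment over 22206 tests and a threshold of 0.05. It was tested on simulated data. Exact permutation tests served for single genes. The 3 genes, the 22 gene lists and the naming rule were chosen with earlier results of these data known. The rule names the 3 genes, every gene of the neutrophil, alarmin, signalling, acute phase and iron lists with a value, the 4 genes most like each of the 3 by either measure, and up to 2 genes of each other list. The rows in the authors' lists alone, Myh7, Mcpt4 and Fcer1a were added after values were seen. Alternatives were 2 rescalings, other fits and weights, the tests adjusted over, a filter on dim probes and samples left out. Same-numbered P30 samples were checked for pairing: their deviations from group means correlated by -0.18 to 0.04. No pairing by number was seen, but so few samples cannot exclude it. The number of arrays limits precision. Motifs were searched with Python 3.11.15. A gene of the neutrophil surface list counts in that list's totals but is not reported here by name.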

Additional observations from a re-analysis of the deposited data

Results flagged for a closer look

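By Dixon's test no group of 4 or 5 samples held a value past the 95% critical value for S100a8, Ngp, Lcn2 or S100a9. The test divides the gap between an extreme sample and its neighbour by the group's range. Its highest ratios were 0.777 for Lcn2 in normoxic P30 hearts (sample 5, 3.98), whose removal moves the results as given above, and 0.648 for S100a9 in hypoxic P30 hearts (sample 1, 6.09). The difference between the hypoxia effects at P30 and P8 was tested in 67 named genes and passed limma's adjusted threshold in 24, none of them S100a8, Ngp or Lcn2. Over all 4704 probes 5.17% passed. Many of the 67 were named through the authors' P8 list or for a large P8 difference, which favours a difference between the effects, so the 2 shares are not alike. Values are log2 differences of the P30 effect minus the P8 effect. Among neutrophil, signalling and iron genes it was -3.90 for Cybb, -3.43 for Spi1, -2.36 for Bcl3, -2.23 for Stfa2l1 and -1.82 for Ftl1. Among genes most like S100a8, Ngp or Lcn2 it was -5.08 for Ly6a, -4.61 for Rsad2, -3.91 for Hdc, -3.71 for Wars, -3.19 for Bnip3, -3.10 for Fcer1g, -2.13 for Rassf4 and -1.96 for Cd68. In the other lists it was -5.36 for Lgals3bp, -4.15 for Ube2c, -3.86 for Tnni1, -3.55 for Ahsp, -2.79 for Ccnb1, -2.77 for Slc2a1, -2.42 for Pfkp and -1.53 for Eng. It was positive for Dcn (1.82), Hrc (1.88) and Lum (2.46), which were lower in hypoxia at P8.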

How the results depend on the processing

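S100a8 at P8 and S100a8 and Ngp with age in hypoxia were called under every alternative run. At P8 the number of the 3 genes called dropped to 1 with arrays centred on their medians (Ngp 1.60, adjusted p = 0.0907, Lcn2 1.31, 0.133) and without hypoxic samples 4 and 5 (Ngp 1.07, Lcn2 1.30), where 893 probes (19%) were called against 20.7% with all samples. Lcn2 was also lost with quantile normalization (1.47, 0.0741) and Ngp in a fit to the P8 groups alone (1.96, 0.116). The difference between the hypoxia effects was called for Lcn2 with array weights (-2.54, 0.0198, 1 of 3 genes), and for S100a8 (-1.69, 0.0291) and Lcn2 (-2.24, 0.0177) when adjusted over the value table alone (2 of 3), whose probes were selected for differing. Lcn2 with age in normoxia was lost in a fit to those groups alone (1.83, 0.0503, 0 of 3 genes) and by the exact permutation test (1.83, p = 0.0571). Lcn2 with age in hypoxia turned from -0.41 to 0.07 with arrays centred and to 0.02 with quantile normalization. The cause of these changes was not tested. Without single samples, log2 differences of hypoxia at P8 were 1.86 to 2.48 for S100a8, 1.55 to 2.26 for Ngp and 1.43 to 1.90 for Lcn2 (1 to 3 of 3 called). At P30 they were 0.38 to 0.64 for S100a8, -0.16 to 0.28 for Ngp and -1.09 to -0.29 for Lcn2 (0 called), and Ngp turned sign without normoxic sample 4 (-0.16) or hypoxic sample 2 (-0.01). The difference between effects was -1.98 to -1.36 for S100a8, -2.14 to -1.43 for Ngp and -2.76 to -1.97 for Lcn2 (0 to 1 called). With age in normoxia values were -0.74 to -0.12 for S100a8, -0.64 to -0.14 for Ngp and 1.56 to 2.36 for Lcn2 (0 to 1 called), and with age in hypoxia -2.30 to -1.79 for S100a8, -2.56 to -1.85 for Ngp and -0.63 to -0.16 for Lcn2 (2 called). The excess of the change in Lcn2 with age in normoxia was 1.85 to 2.90 over S100a8 and 1.84 to 2.90 over Ngp, and S100a8 minus Ngp was -0.23 to 0.30, below 0 without P30 sample 4 (-0.20) and without P8 samples 13 (-0.12) or 23 (-0.23). With the replicate number as a block within P30 samples 2 to 5, hypoxia effects were 0.43 for S100a8, 0.05 for Ngp and -0.42 for Lcn2. In these samples 0 probes were called with or without the block, so the calls could not show whether it mattered. The filter on dim probes (a group mean above 5.59) removed all 3 genes, so it gave no value for these dim signals, and signal over background was not analysed here.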

Other observations

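Transcripts of other granulocytes, of mast cells and of platelets had few values. Epx, the eosinophil peroxidase, was at 3.06 in normoxic and 2.55 in hypoxic P8 hearts and at 2.30 and 2.86 at P30. Neither difference (-0.51 and 0.56) nor the change between them (1.06, limma adjusted p = 0.0889) passed. In the authors' deposited table Epx, the mast cell protease Mcpt4 and the IgE receptor chain Fcer1a have folds of -1.39, -1.09 and -1.28 at P8 and of 1.54, 1.43 and 1.32 at P30, with q-values of 0.0818 to 0.7009. Ppbp, a platelet chemokine that attracts neutrophils, was at 4.08 in normoxic and 5.26 in hypoxic hearts at P8 and at 3.44 and 4.87 at P30, differences of 1.17 and 1.43 that were not called.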
